A study of Mus musculus with 7 samples.

Results

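The cytosolic ribosomal protein genes encode the proteins of the large (Rpl) and small (Rps) subunit of the ribosome. They were followed in G1E cells, a mouse erythroid line arrested at an immature stage because its Gata1 gene is disrupted. Members were all genes whose symbol follows the Rpl or Rps pattern with a number, plus Rplp0, Rplp1, Rplp2 and Rpsa, and that were measured by a probeset with a single gene symbol. They numbered 67 of 22180 measured genes, 42 of the large and 25 of the small subunit. Another 12 ribosomal protein symbols, among them Rps2, Rpl10 and Rpl13a, occurred only in probesets shared with other symbols and were not analysed here. Total RNA was hybridised to 7 Affymetrix Mouse Gene 2.0 ST arrays, 3 from control cells with wild-type Lockd and 4 from cells in which CRISPR/Cas9 had been used to delete Lockd, a long non-coding RNA gene beside Cdkn1b. The arrays are described as coming from clones, but which of them share a clone or a culture is not stated. The p-values thus rest on the spread between arrays, part of which can be technical.

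Ribosomes are assembled in the nucleolus from ribosomal RNA and about equal amounts of each ribosomal protein, so the protein genes are usually expressed in balance. Their mRNAs carry a 5′ terminal oligopyrimidine tract, a C followed by more C and T bases, through which mTORC1 and LARP1 control their translation. Erythroid precursors are known to be sensitive to the dose of single ribosomal proteins, as in Diamond-Blackfan anaemia. Names such as Rpl13 and Rpl13a denote unrelated proteins, whereas an l after the number (Rpl22l1, Rps27l) usually marks a paralogue.

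The start sites of the members are shown first, because the tract at the start is the feature by which these mRNAs are regulated together. The RefSeq promoter table (GRCm38.p6, 250 bases before and 50 after each annotated start) held 52 of the 67 members, 31 large and 21 small subunit genes. A run of at least 5 C or T bases that opened with C exactly at the annotated start was found in 11 of the 52, or 21.2%, and in 2.75% of the 16990 measured genes with an entry. Its length ran from 5 to 13 bases with a median of 9. Read on the opposite strand from the same base, such a run was found in 1.92% of members and 3.86% of all genes. With the first C allowed up to 5 bases to either side, the shares were 42.3% and 21.7%. The 8 members with tracts of 8 bases or more are printed below from 10 bases before the start to 20 bases from it, with the tract in capitals.
Rpl15: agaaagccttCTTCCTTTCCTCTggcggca
Rpl35: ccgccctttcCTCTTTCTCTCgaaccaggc
Rps10: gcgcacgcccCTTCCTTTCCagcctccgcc
Rpl32l: aaatgaccagCTTCTTCCTTggtgctgcct
Rps18: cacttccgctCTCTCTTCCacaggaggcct
Rps6: gaagtcgggcCTCTTTTTCgtgacgcctcc
Rpl28: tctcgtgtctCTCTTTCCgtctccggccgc
Rpl38: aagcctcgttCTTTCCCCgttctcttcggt
These windows lie at chr14:18270967-18270996 on the minus strand for Rpl15, chr2:39005112-39005141 on the minus strand for Rpl35 and chr17:27635225-27635254 on the minus strand for Rps10. Those of Rps18 and Rps6 lie at chr17:33955646-33955675 and chr4:86857348-86857377, both on the minus strand. On the plus strand lie Rpl32l at chr10:20208429-20208458, Rpl28 at chr7:4792955-4792984 and Rpl38 at chr11:114668570-114668599. A gene without such a run has only an annotated start that does not open with these letters.

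In the same window, the letters CCGGAAG, the core recognised by ETS factors such as GABPA, stood on either strand in 23 of the 52 promoters, or 44.2%, against 12.7% of all genes. The 3 upstream occurrences closest to a start, among those extracted with their flanks, are printed to show how near they lie to it, with the letters in capitals.
Rpl38: ggggttaaccgtCCGGAAGcggaagcctcg
Rpl37: caccaagacccgCCGGAAGtagtttcctgg
Rps10: gagccgcgcagcCCGGAAGagacgctgcgc
The letters begin 20 bases before the start in Rpl38 (chr11:114668548-114668577, plus strand), 23 in Rpl37 (chr15:5116578-5116607, plus strand) and 29 in Rps10 (chr17:27635256-27635285, minus strand). The YY1 letters AAGATGG, which can share 3 bases with the ETS letters, stood in 13.5% of members and 7.32% of all genes. The E-box CACGTG, bound by Myc and Max, stood in 7.69% and 9.19%, and the TATA box letters TATAAA in 11.5% and 14.3%, both strands searched. A match is a run of letters and not a measured binding site. The median difference between deletion and control, described below, was 0.008 for the 11 members with a tract at the start. It was 0.036 for the other matched members. Members with and without the letters had medians of 0.010 and 0.040 for CCGGAAG and 0.010 and 0.030 for TATAAA. The order was reversed for AAGATGG (0.051 and 0.018) and CACGTG (0.034 and 0.025). All these medians are given without a test.

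The labels were checked first. Lockd read 7.80 to 8.04 on control and 4.17 to 5.15 on deletion arrays, and Cdkn1b, the p27 gene, 9.056 to 9.305 and 7.887 to 8.245. These 2 were all the probesets that passed in limma with Benjamini-Hochberg adjustment. The 12 measured erythroid precursor markers had control means from 7.71 for Nfe2 to 13.27 for Car2, with Gata2 at 12.46 and Kit at 11.74. Of the 14 measured markers of other blood cells, 12 had control means of 3.68 to 6.69. The exceptions were the platelet gene Gp9 at 8.11 and the mast cell gene Cpa3, which ran from 9.53 to 11.97 within the control group. Unadjusted limma p-values were under 0.05 for 2 of 12 erythroid markers (Tfrc at -0.171 and Lmo2 at 0.306) and for 2 of the 14 others (Gp9 at -0.332 and Mpo at 0.238), where 4.61% of all genes had such a p. Their part in the differences below was not tested. Arrays correlated at 0.993 to 0.996. Control replicate 2 had the lowest array weight in limma, 0.489, against 0.799 to 1.43 for the other arrays. Within a probeset, values can be compared between arrays. Between probesets they cannot be read as transcript amounts.

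No ribosomal protein gene rose or fell past the threshold on deletion of Lockd. In limma, 0 of the 67 passed an adjusted p of 0.05, where 0.00850% of all probesets did. An unadjusted limma p under 0.05 was found for 0 members and for 4.61% of all genes. Brighter genes had such a p less often, 28 of the 2205 other genes with means above 10, and 34 members had means above 10. The smallest unadjusted limma p was 0.112, for Rpl22l1. Differences, deletion minus control on the log2 scale, ran from -0.192 to 0.142 with a median of 0.030, or 2.1%, against 0.005 over all genes. They were positive for 56 of 67 members, or 83.6%, where 52.2% of all genes were. That count leaned on the scaling and on single arrays. With each array centred on its median it was 36 of 67 (53.7%) with a median of 0.0063. Of all genes 42.1% were then positive, with a median of -0.018. Without control replicate 1 the count of members was 41, with a median of 0.012. Without deletion replicate 3 it was 45, with a median of 0.013, and without control replicate 2 it was 53. RMA sets all arrays to a common distribution, so a change in total ribosomal mRNA per cell would be seen only relative to other transcripts, and in bulk RNA fewer cells of a type and less RNA per cell cannot be told apart.

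The intervals bound how large a change in the array values could have gone unseen. For 65 of the 67 members the 95% interval lay within 0.5 on the log2 scale either way, a change of 41.4% upward. For 45 it lay within 0.25, a change of 18.9% upward. Those 45 were 33 of the 34 members with means above 10 but only 12 of the 33 with means below it. Some of the members within 0.5 were dim. The dimmest was Rpl32l, with a control mean of 2.96. Rpl39, Rps15 and Rpl30 had control means of 5.89, 5.95 and 5.95, inside the 3.68 to 6.69 of most markers of other blood cells. Whether such dim probesets follow the amount of mRNA was not tested. The members outside 0.5 were Rps13, with an interval of -0.412 to 0.583, and Rps16, with one of -0.349 to 0.561. Rps13 read 5.96, 5.93 and 5.03 on control and 5.84, 5.77, 5.82 and 5.49 on deletion arrays. Control replicate 3 stood low and the groups overlapped. Rps16, a small subunit protein gene, read 6.08, 5.75 and 6.03 on control and 6.19, 6.01, 6.49 and 5.55 on deletion arrays, where replicates 3 and 4 lay at the ends and enclosed all control values.

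**Figure D1:**
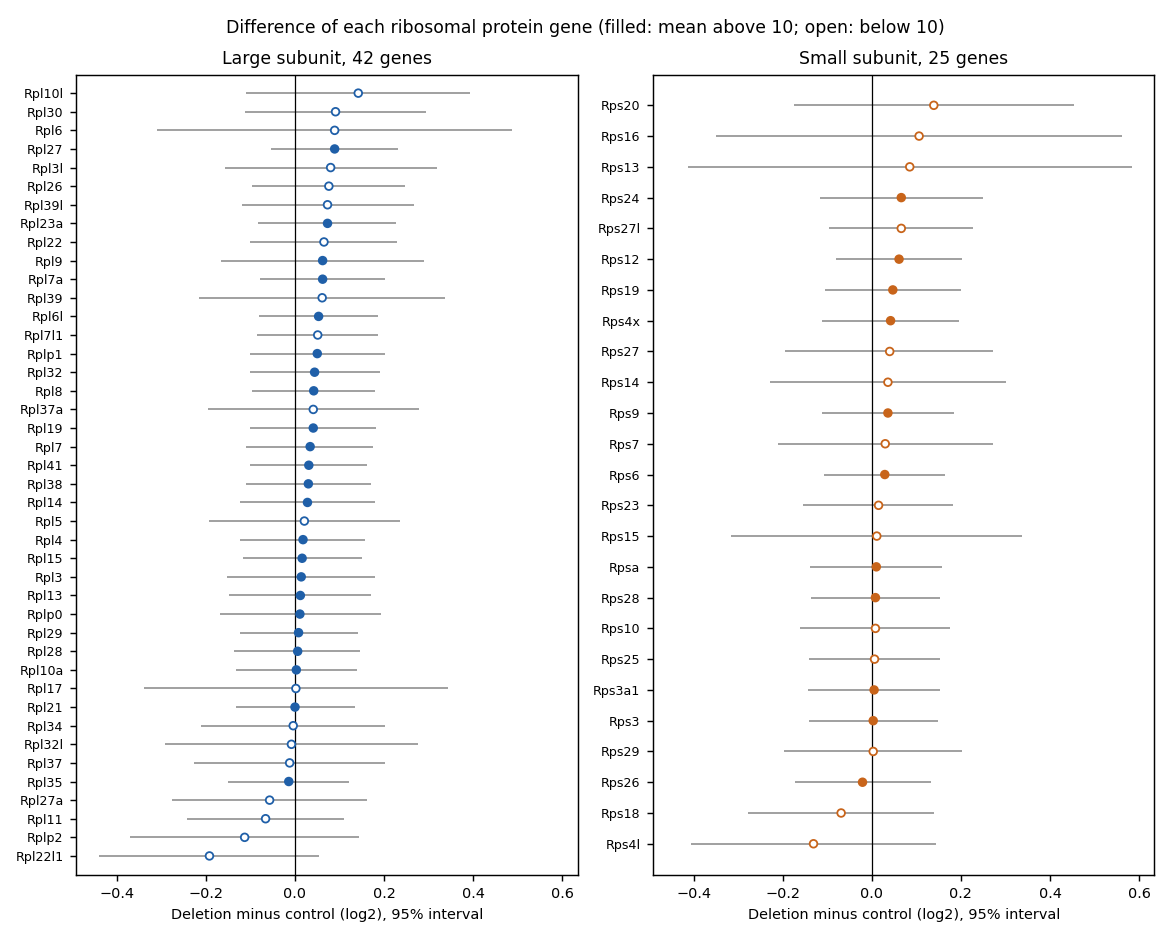
Difference between deletion and control arrays on the log2 scale for each of the 67 ribosomal protein genes, large subunit left and small subunit right. Points are limma differences, bars 95% intervals, and filled points probesets with means above 10; every interval crosses 0, and the median SE is 0.063 for filled and 0.102 for open points.

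The chosen probesets fell into 2 bands of signal. Of the 67 means over all arrays, 34 lay between 11.24 and 13.53 and 33 between 2.95 and 9.64, with none in between. The bands were drawn after the values were seen and carry no test. In the upper band 32 of 34 differences were positive, with a median of 0.030, a median residual SD of 0.047 and all intervals between -0.173 and 0.289. In the lower band 24 of 33 were positive, with the same median of 0.030 and a residual SD of 0.144. The 2205 other genes with means above 10 had a median difference of 0.006, and 55.0% of them were positive. The least variable member between arrays was Rpl41, which encodes the smallest ribosomal protein. It read 12.92, 12.92 and 12.95 on control and 12.97, 12.95, 12.97 and 12.95 on deletion arrays, with a residual SD of 0.0155. Next came Rpl29 at 0.0221 and Rpl6l at 0.0241. The most variable were Rps13 at 0.358, Rps16 at 0.325 and Rpl6 at 0.281.

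Large and small subunit genes did not separate. The median difference was 0.030 over 42 large subunit genes, of which 34 were positive, and 0.029 over 25 small subunit genes, of which 22 were positive. On each array the median shift of the large subunit genes from their 7-array means, minus that of the small subunit genes, gave the balance. It was 0.029, 0.014 and -0.047 on control and -0.016, 0.008, -0.032 and 0.016 on deletion arrays, with means of -0.001 ± 0.040 (SD, n = 3) and -0.006 ± 0.022 (SD, n = 4). The difference of -0.005 was smaller than either SD, and the groups overlapped.

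The highest differences among large subunit genes were those of Rpl10l, Rpl30, Rpl6 and Rpl27. Rpl27, a gene mutated in Diamond-Blackfan anaemia, read 11.695, 11.829 and 11.754 on control and 11.832, 11.871, 11.840 and 11.851 on deletion arrays. All deletion arrays lay above all control arrays, narrowly at the nearest point. The difference was 0.089 (SE 0.062, limma unadjusted p 0.188). Rpl6l was the other member whose groups did not overlap, at 12.160, 12.220 and 12.172 against 12.240, 12.223, 12.261 and 12.224, a difference of 0.053 (SE 0.058). These were 2 of 67 higher and 0 lower, where 2.65% of all genes did not overlap upward, 2.54% downward and 5.19% either way. Rpl6, whose product lies on the large subunit, read 7.38, 7.98 and 7.48 on control and 7.34, 7.72, 7.89 and 7.86 on deletion arrays. Its highest value was on control replicate 2 and its lowest on deletion replicate 1, and the difference of 0.089 had an SE of 0.175. Rpl30 differed by 0.091 (SE 0.089).

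Among the acidic stalk proteins, which recruit elongation factors to the large subunit, values went both ways without passing. Rplp0, the stalk base, read 11.58, 11.87 and 11.69 on control and 11.73, 11.73, 11.74 and 11.70 on deletion arrays, and the 4 deletion arrays lay inside the control range. Rplp1 differed by 0.050 (SE 0.066). Rplp2 read 6.71, 7.11 and 6.76 on control and 6.85, 6.58, 6.78 and 6.78 on deletion arrays, a difference of -0.113 (SE 0.112). Control replicate 2 alone stood high for Rplp2, and the difference was 0.013 without it. Rpl5 and Rpl11, which with 5S RNA form the particle that binds Mdm2, differed by 0.021 (SE 0.094) and -0.066 (SE 0.077). Rpl11 lay between 7.42 and 7.63 in control cells and between 7.38 and 7.56 after deletion, so the groups overlapped.

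Of the small subunit genes, Rps20 had the highest difference, 0.139 (SE 0.137), with 6.99, 7.23 and 6.82 on control and 7.03, 6.93, 7.42 and 7.23 on deletion arrays. Its groups overlapped over most of their range. Rps16 followed at 0.106 (SE 0.199) and turned to -0.038 without deletion replicate 3. At the other end stood Rps4l at -0.131 (SE 0.120) and Rps18 at -0.069 (SE 0.092). Rps18 read 9.26, 9.34 and 9.54 on control and 9.30, 9.16, 9.42 and 9.34 on deletion arrays. Control replicate 3 was its highest array, and the difference was 0.010 without it. Rps6, the protein phosphorylated by S6 kinase, differed by 0.029 (SE 0.059) and lay between 13.42 and 13.47 in control cells and between 13.43 and 13.51 after deletion.

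Paralogues were set against their core genes on the same arrays, and the stalk protein gene Rplp2 against Rplp1. Rpl22l1 is the paralogue of the RNA-binding large subunit protein Rpl22. It read 6.31, 6.40 and 6.08 on control and 5.98, 6.12, 5.92 and 6.27 on deletion arrays, the lowest difference of all members at -0.192 (SE 0.108, 95% interval -0.440 to 0.055). Deletion replicates 2 and 4 lay above control replicate 3, so the groups overlapped. Rpl22 itself read 8.14, 8.38 and 8.23 on control and 8.29, 8.34, 8.32 and 8.31 on deletion arrays, a difference of 0.065 (SE 0.072). The within-array difference of Rpl22l1 minus Rpl22 was 0.257 lower on deletion arrays on average (-0.257 on the log2 scale), with an exact two-sided permutation p of 0.114 over 35 splits and 0.400 after adjustment over 7 pairs. The smallest p those splits allow is 0.0286. The unadjusted limma p for Rpl22l1 was under 0.05 without control replicate 3 or without deletion replicate 4, while its adjusted limma p was 0.681 or more under all 16 other settings.

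For Rps4l against Rps4x, the X-linked small subunit gene, the within-array difference shifted by -0.173 (exact permutation p 0.343). Rps4l read 5.67, 5.16 and 5.52 on control and 5.22, 5.39, 5.40 and 5.26 on deletion arrays, with control replicate 2 the lowest of all 7. Rplp2 against Rplp1 shifted by -0.163 (exact permutation p 0.114, adjusted 0.400). The remaining pairs moved less, at 0.067 for Rpl3l, the striated muscle paralogue of Rpl3, 0.026 for Rps27l, a p53 target gene, 0.017 for Rpl7l1 and 0.012 for Rpl39l. Their exact permutation p-values ran from 0.686 to 0.943. Taken singly, the paralogues differed by 0.080 (Rpl3l), 0.066 (Rps27l), 0.051 (Rpl7l1) and 0.073 (Rpl39l), and their core genes by 0.014 (Rpl3), 0.040 (Rps27), 0.034 (Rpl7), 0.061 (Rpl39) and 0.042 (Rps4x). Rpl10l, known from the testis, read 4.24, 3.79 and 4.08 on control and 4.30, 4.17, 4.10 and 4.15 on deletion arrays, a difference of 0.142 (SE 0.110). Its low value was that of control replicate 2, and without that array the difference was 0.018. Rpl6l differed by 0.053 and Rpl32l by -0.008. They were not among the 7 pairs, although Rpl6 (0.089) and Rpl32 (0.044) were measured. RMA gives no detection call, so whether the dim paralogues and other dim members were expressed was not measured.

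**Figure D2:**
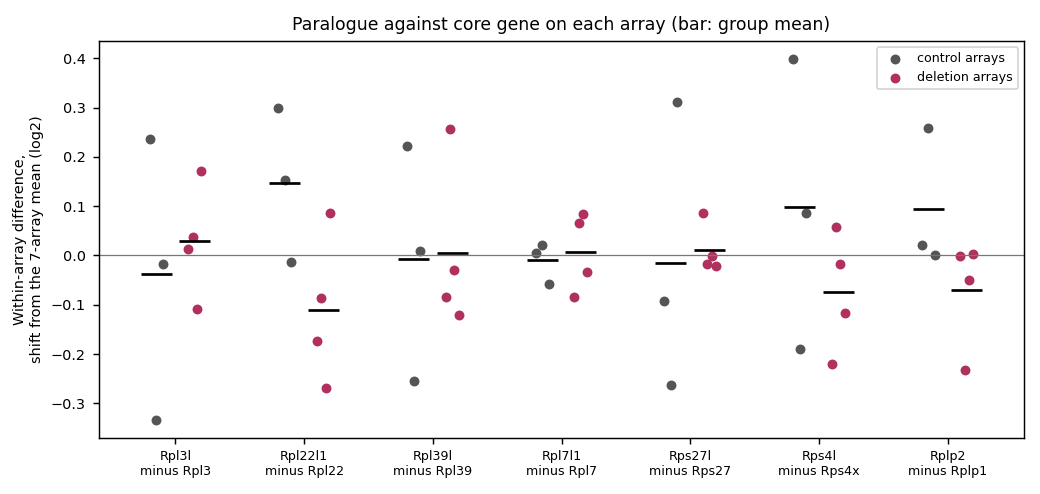
Log2 value of each paralogue minus its core gene, or of Rplp2 minus Rplp1, on the same array, for 7 pairs. Values are shifts from the mean over 7 arrays. Points are arrays (3 control, 4 deletion) and bars group means; in every pair the groups overlap, and the largest gap between means is -0.257 for Rpl22l1 minus Rpl22.

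Between arrays of the same group the members moved together to a small degree. On control replicate 1, 18 of 67 members lay above the control mean, with a median deviation of -0.038. On control replicates 2 and 3 the counts were 47 and 38, with medians of 0.030 and 0.014. On deletion replicates 1 to 4 they were 42, 18, 48 and 33, with medians of 0.009, -0.027, 0.024 and 0.000. Over all genes the median deviations were 0.004 or less in size on each array. Of the control arrays, replicate 1 gave the lowest value for 40 members, and of the deletion arrays, replicate 2 did so for 31.

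The common movement was clearest in the bright small subunit genes. The 11 small subunit genes with means above 10 all lay below their group mean on control replicate 1, with a median deviation of -0.070, and on deletion replicate 2, at -0.043. They lay above it in 10 of 11 cases on control replicate 3 and on deletion replicate 1. The mean pairwise correlation of deviations over the 7 arrays was 0.633 for these 11 genes, 0.202 for the 23 bright large subunit genes and 0.069 for the 33 dim members. It was 0.136 over all 67 members, or 0.074 without control replicate 1, 0.040 over the 2205 other genes with means above 10 and 0.001 over all genes. Those other bright genes had median deviations of -0.011 on control replicate 1, 0.018 on control replicate 2 and 0.016 on deletion replicate 3. These correlations rest on 7 arrays with group means removed, and whether probesets share probes was not tested. For the 34 bright members the value was 0.323, and 0.168 without control replicate 1. For the bright small and the bright large subunit genes apart, the value without that array was not computed. Each gene set beside the median of the other members, Rpl38 followed it most closely (r = 0.921, 7 arrays). The dim paralogues Rpl3l (-0.730), Rps4l (-0.707) and Rpl10l (-0.682) ran against it most strongly. Their lowest deviations, -0.244, -0.292 and -0.248, were all on control replicate 2. Of the other dim paralogues, Rpl22l1 (-0.300) and Rpl39l (-0.283) were negative, and Rps27l (0.559), Rpl7l1 (0.281) and Rpl32l (0.213) were positive.

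**Figure D3:**
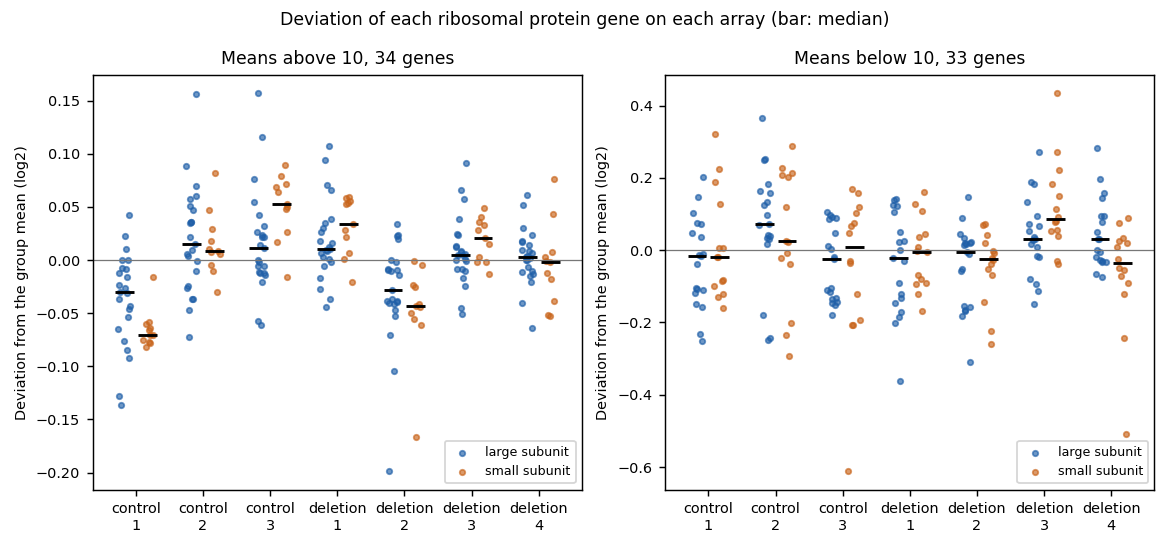
Deviation of each ribosomal protein gene from its group mean on each array (log2), for 34 genes with means above 10 (left) and 33 below (right); the vertical scales differ. Blue points are large and orange points small subunit genes and bars are medians; in the left panel the small subunit genes lie below 0 on control replicate 1 and deletion replicate 2.

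Which probeset stood for a gene mattered at this size of difference. Probe sequences were not used here, so whether a probeset also detects processed pseudogene copies of its gene was not tested. The 67 members had 108 probesets, and 25 members had more than 1. Of these, 10 had probesets that differed in sign. The 41 probesets not chosen ran from -0.152 to 0.243, 29 of them positive. The 25 of them with means below 10 had a median of 0.002, with 14 positive. The gap to the chosen probeset had a median size of 0.048 and reached 0.212. Among those not chosen, 2 had an unadjusted limma p under 0.05, where 4.64% of all probesets did, and they were named after their values were seen. One was the dimmest of 5 Rpl41 probesets, at 7.22, 6.83 and 7.11 on control and 7.38, 7.15, 7.36 and 7.28 on deletion arrays, a difference of 0.243 (SE 0.106). The other was a dim Rps28 probeset at 7.41, 7.42 and 7.45 on control and 7.58, 7.61, 7.60 and 7.52 on deletion arrays. Its groups did not overlap and the difference was 0.147 (SE 0.060). The bright probesets of the same genes differed by 0.031 for Rpl41 and 0.008 for Rps28. Values were equal to those of another member probeset in 10 probesets, of Rps12, Rps19 and Rpl23a, which therefore are not independent measurements.

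**Figure D4:**
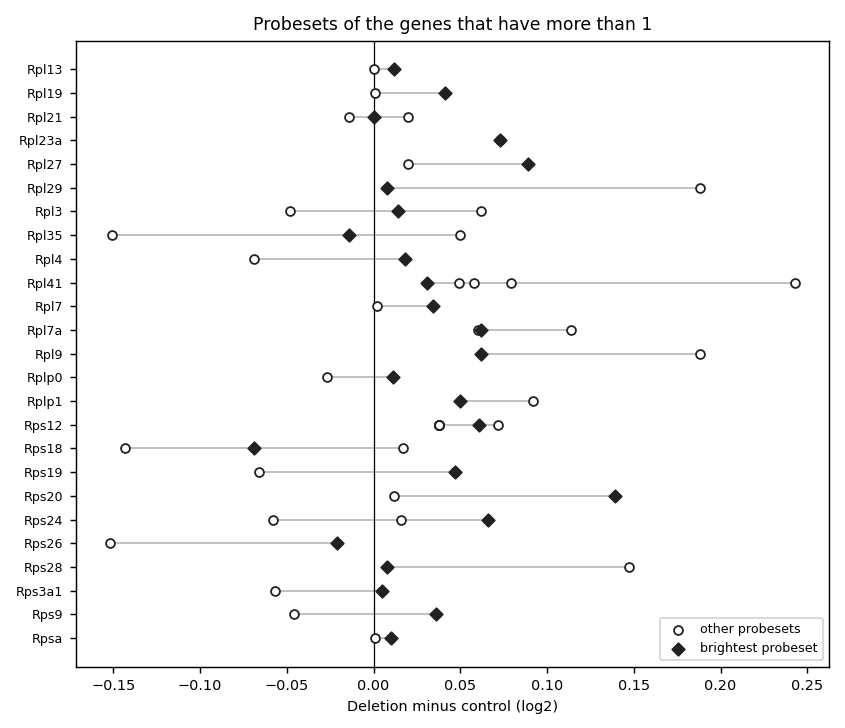
Difference between deletion and control (log2) for every probeset of the 25 ribosomal protein genes that had more than 1. Filled diamonds are the brightest probeset, used for the gene, and open circles the others; the circles spread from -0.152 to 0.243 and the diamonds from -0.069 to 0.139.

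Genes mutated in Diamond-Blackfan anaemia, most of them members, did not pass the test. Of 23 listed genes 18 were measured, the chaperone gene Tsr2 and the erythroid factor gene Gata1 included, and 15 were positive with a median of 0.035. The count with an unadjusted limma p under 0.05 was 0. Over all genes the shares were 52.2% positive and 4.61% with such a p, which 28 of the 2205 other genes with means above 10 had. The list's share of positive values, 83.3%, stands beside 83.6% for the members it is mostly made of. The extremes were Rpl11 at -0.066 and Gata1 at 0.112 (SE 0.076), followed by Rpl27 at 0.089. The Gata1 gene is disrupted in these cells, and what transcript its probeset reads was not tested. Rps19, the gene most often mutated in that anaemia, read 11.71, 11.80 and 11.86 on control and 11.87, 11.81, 11.89 and 11.79 on deletion arrays, with a difference of 0.047 (SE 0.067). Its groups overlapped in part, with deletion replicates 1 and 3 above all control arrays.

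Genes around the ribosome also had 0 passing members in limma, and 0 with an unadjusted p under 0.05. Of 47 measured ribosome assembly genes 42 were positive, with a median of 0.052. The smallest p in that list belonged to the nucleolar gene Nop16, at 0.143 (SE 0.077). Npm1 and Ncl, which encode abundant nucleolar proteins, differed by 0.037 and 0.028. RNA polymerase I and III genes were positive in 15 of 21, with a median of 0.034 and Brf1, a subunit gene of the factor TFIIIB, at 0.197 (SE 0.106). Translation factor genes were positive in 25 of 33, with a median of 0.024 and the initiation factor gene Eif5 at 0.122 (SE 0.061). Regulators of terminal oligopyrimidine mRNAs were positive in 8 of 17, with a median of -0.001 and the mTORC1 subunit gene Rptor at -0.105 (SE 0.070). In the 5S particle and p53 arm 4 of 7 were positive, with a median of 0.020 and Nop53 at 0.073 (SE 0.062). Fau, whose product includes a small subunit protein and whose symbol lies outside the pattern, differed by 0.028 (SE 0.065). The share of positive values was 52.2% over all genes and 55.0% over the 2205 other genes with means above 10. Of those 2205, 28 had an unadjusted limma p under 0.05. How far the counts of these lists lean on the scaling or on single arrays was not tested.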

How the data were processed

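The authors deposited log2 expression values. The submitters' processing notes name RMA and Affymetrix Expression Console, and the design text states RMA. Values between 1.87 and 14.01 fit a log2 scale. For the software version, library files and genome build, nothing was given in the sources used here. Of 41345 probesets, 23521 had exactly 1 symbol in the platform annotation, 1814 had several and 16010 were not listed. A gene was represented by its probeset with the highest mean over 7 arrays. The test was two-sided and used limma 3.58.1 under R 4.3.3 (lmFit, eBayes, both groups in 1 fit, no covariate or filter). Its p-values were adjusted by Benjamini-Hochberg across 23521 probesets, with a threshold of 0.05. The fit was tested on simulated data. Groups came from the titles. Paralogue pairs were tested with an exact permutation test over 35 splits, counted by size in either direction, added after seeing the data. Promoter letters came from the RefSeq table of GRCm38.p6. Lists are described by counts and medians. Members and lists were chosen with earlier results of these data known. Named were the 5 extreme members in each direction, members with an unadjusted p under 0.05 or with groups that do not overlap, paralogue pairs, the 3 most and 3 least variable members, extremes of the Diamond-Blackfan list, the smallest p of each other list, and Lockd with Cdkn1b. Rpl5, Rps6, Rplp0, Rps19, Npm1 and Ncl were named for their role. The number of arrays limits the precision.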

Additional observations from a re-analysis of the deposited data

Results flagged for a closer look

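Among the 4 deletion arrays, 1 array stood far from the others for 3 of the 67 members, where chance sets apart about 1 in 20 such groups. Rpl3, the peptidyl transferase centre protein gene, read 12.619 on deletion replicate 4 and 12.698 to 12.707 on the others. Rps24 read 11.812 on deletion replicate 2, 12.014 to 12.055 on the other deletion arrays and 11.842 to 11.976 on the control arrays. Rpl39 read 5.638 on deletion replicate 2 and 6.020 to 6.088 on the others. Deletion replicate 2 was also the array on which the fewest deletion values of members lay above the group mean, 18 of 67.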

How the results depend on the processing

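No member passed the threshold in limma under any of the 16 other settings, and the smallest adjusted p was 0.681. The count with an unadjusted p under 0.05, 0 as reported, was 1 with an intensity trend and robust variance estimation together (Rpl27), 2 with a replicate block by the title numbers (Rpl22l1 and Rps16) and 0 to 1 when each array was left out. The count of positive differences, 56 as reported, was 36 with arrays centred on their median, 32 with a replicate block by the description numbers and 41 to 57 when each array was left out. With that description block the median difference was -0.0019 over all members and -0.0001 over large subunit genes, and with centring the latter was 0.0067. By description number, only control replicate 2 with deletion replicate 1 and control replicate 3 with deletion replicate 2 shared a block. The differences with that block therefore rest on those arrays alone. Centring moved the median of all genes from 0.005 to -0.018. Beyond this the cause was not tested. Same-numbered arrays had deviations that correlated at 0.025, 0.061 and -0.098 by title and at -0.171 and -0.099 by description. These correlations do not settle whether the block numbers pair the samples.

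Leaving out each array gave medians of 0.012 to 0.042 over all members, and the balance of the subunits went from -0.016 to 0.021. Single genes changed sign without passing. When each array was left out, Rpl6 went from -0.028 (without control replicate 1) to 0.271, Rplp2 from -0.187 to 0.013 (without control replicate 2), Rps18 from -0.130 to 0.010 (without control replicate 3) and Rps16 from -0.038 (without deletion replicate 3) to 0.276. With the description block Rpl6 was -0.198 and Rps20 -0.043. Dim probesets limit the precision, with a median SE of 0.102 below a mean of 10 and 0.063 above.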
